A study of Mus musculus with 6 samples.

Results

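ATF4 is the transcription factor at the centre of the integrated stress response, and the genes described here are ATF4 itself with its partners and targets, the enzymes of serine synthesis and one-carbon metabolism, and amino acid transporters. Members were chosen by symbol from a list of 39 genes, and 38 of them had a row among the 14868 genes of the deposited table. Slc7a11, the cystine transporter gene, was not analysed here. All 38 passed the filter on low values, which kept genes averaging 10 or more normalized reads. RNA was sequenced from naïve CD4+ T cells of wild-type (WT) mice and of Ikzf4-/- mice, which lack the gene of the Ikaros-family factor Eos, both on a C57BL/6J background. Every culture, WT or Ikzf4-/-, received the same Th2-polarizing treatment: 10 µg/mL of an anti-interferon gamma antibody and 10 ng/mL interleukin-4 on plate-bound anti-CD3 (5 µg/mL) with anti-CD28 (2 µg/mL), for 72 h. The medium was IMDM with 10% fetal bovine serum and 50 µM 2-mercaptoethanol. There were 3 libraries per genotype. The age and sex of the mice are not given in the sources used here, nor whether cells were pooled or came from separate mice, so p-values measure the spread between these libraries, which may be technical. In bulk RNA, fewer cells of a type and less RNA per cell cannot be told apart.

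The integrated stress response begins with kinases that phosphorylate the translation factor eIF2. PERK, from Eif2ak3, senses misfolded protein in the endoplasmic reticulum, and GCN2, from Eif2ak4, senses uncharged tRNA when amino acids run short. General translation then slows while translation of the ATF4 message rises, so the amount of Atf4 RNA need not follow the amount of ATF4 protein. ATF4 pairs with C/EBP-family factors on a composite DNA element and raises genes that import and make amino acids, charge tRNA and supply serine-derived carbon units. Dividing T cells draw on the same genes during activation, because they need amino acids for protein and one-carbon units for nucleotides.

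The composite element is shown first because the results below are also given for the members that hold its core near their start. RefSeq promoter windows (GRCm38.p6, 250 bases before to 50 after a gene's start) were matched by symbol for 35 of the 39 listed genes, and for 34 of the 38 with a row. The core TGATGNAA of the C/EBP-ATF response element was searched on both strands. It was found for 7 of these 34 genes (20.6%), against 2.70% of the 10284 tested genes with a window and 3.97% of all 32851 windows. Because the list was chosen to hold ATF4 targets, these shares are description only and no independent evidence about the genes. The MYC-type E-box CACGTG, which reads the same on both strands, was found for 4 of the 34 (11.8%), against 11.6% of the tested genes with a window. The windows below run 5′ to 3′ on the gene's own strand, with the core, or its reverse complement, in capitals. The last 2 genes, Atf3 and Jdp2, are not members and are shown because they had the core and passed the test described further on.
Chac1 (chr2:119351013-119351092, plus strand): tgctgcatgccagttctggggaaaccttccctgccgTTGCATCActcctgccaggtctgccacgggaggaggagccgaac
Trib3 (chr2:152344031-152344082, minus strand): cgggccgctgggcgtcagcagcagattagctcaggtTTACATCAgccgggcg
Asns (chr6:7693189-7693268, minus strand): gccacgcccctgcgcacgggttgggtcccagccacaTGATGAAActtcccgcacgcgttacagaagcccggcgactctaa
Pycr1 (chr11:120643808-120643887, minus strand): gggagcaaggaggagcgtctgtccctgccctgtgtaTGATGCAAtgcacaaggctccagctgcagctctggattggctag
Slc1a4 (chr11:20332684-20332753, minus strand): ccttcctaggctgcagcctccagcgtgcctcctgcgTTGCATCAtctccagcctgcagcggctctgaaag
Nupr1 (chr7:126625537-126625616, minus strand): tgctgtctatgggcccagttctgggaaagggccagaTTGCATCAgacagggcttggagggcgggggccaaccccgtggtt
Vldlr (chr19:27216784-27216863, plus strand): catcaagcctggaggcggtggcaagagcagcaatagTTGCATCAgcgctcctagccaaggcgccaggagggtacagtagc
Atf3 (chr1:191183400-191183479, minus strand): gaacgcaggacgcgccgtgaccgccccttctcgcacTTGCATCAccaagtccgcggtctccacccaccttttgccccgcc
Jdp2 (chr12:85599347-85599426, plus strand): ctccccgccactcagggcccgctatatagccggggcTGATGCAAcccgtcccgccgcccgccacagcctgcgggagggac
In Asns the core began 23 bases before the gene's start, in Pycr1 103, in Chac1 193, in Nupr1 110, in Slc1a4 4, in Vldlr 200, in Atf3 110 and in Jdp2 33. In Trib3 it began 14 bases after the start. A match describes letters in a window and does not show that a factor binds there.

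The libraries held an estimated 34701390 to 40604346 reads each. The Ikzf4 gene itself was at 755.8, 499.6 and 483.3 normalized reads in WT and at 25.2, 10.5 and 38.2 in Ikzf4-/- libraries, so each library matched its label. The 7 T cell markers summed to 95680 to 98830 in WT and 98650 to 101800 in Ikzf4-/- libraries, and 1 of them, Cd5, was called, higher in Ikzf4-/- cells (log2 change 0.33, limma adjusted p = 0.0306). Its call was lost without WT replicate 2 (0.0794), Ikzf4-/- replicate 1 (0.0894) or Ikzf4-/- replicate 3 (0.116). The 4 Th2 markers Gata3, Il4, Il5 and Il13 were present in all libraries but lower in sum with the knockout, at 11980 to 13160 in WT and 8982 to 10310 in Ikzf4-/- libraries, without overlap. Il4 (-0.87, 0.0144) and Il13 (-0.82, 0.0450) were called. Gata3 (-0.24, 0.146), which had the largest values of the 4 and overlapped between genotypes, and Il5 (-1.24, 0.0529) were not. Il4 lost its call without Ikzf4-/- replicate 3 (0.0571), and Il13 kept its call only without WT replicate 1 (0.0160), with 0.0612 to 0.111 in the other 5 fits. The part of these markers in the results below was not tested. The 2 CD8 T cell markers summed to 236.3 to 423.1 in WT and 232.0 to 373.7 in Ikzf4-/- libraries, and Cd79a and Cd79b, 2 of the 5 B cell markers, to 51.1 to 83.6 and 58.6 to 90.4. Eomes, the 1 of 3 NK cell markers with a row, was at 149 to 299 and 165 to 284. None of these 5 genes was called. The myeloid and erythroid markers were not analysed here. On the first principal component (40.2% of the variance), WT replicates 1 to 3 lay at -41.31, -12.46 and -5.26. Ikzf4-/- replicates 1 to 3 lay at 11.08, 17.11 and 30.85. That axis thus separated the genotypes, with WT replicate 1 the farthest out. Fits without WT replicate 1 are given beside some of the results that it touches.

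Most of the 38 genes had small fitted differences between the genotypes. Cebpb alone passed the threshold of an adjusted p under 0.05 in limma's test over all 14864 genes, 1 of 38 against a background of 1.77%. It was lower in Ikzf4-/- cells, as 1.20% of all genes were, and 0 of 38 were called higher, against 0.572%. An unadjusted p under 0.05 was found for 12 of 38, against 18.1% of all genes. The authors' deposited table gave an adjusted p to 36 of the 38, and for 4 of these it was under 0.05, against a background of 6.34%. In it Cebpb, Stc2 and Slc7a5 were lower (3 of 36, background 3.89%) and Cth was higher (1 of 36, background 2.45%) in Ikzf4-/- cells. The 3 WT and 3 Ikzf4-/- values did not overlap for 12 of 38 genes, against 23.1% of all genes. Of these 12, 9 were lower in Ikzf4-/- cells (background 12.2%) and 3 were higher (background 11.0%). The fitted log2 fold change (log2 change for short) was below 0 for 30 of 38 genes, against 48.7% of all genes, and its median was -0.08, against 0.005 over all genes tested. With equal library totals, which moved the median of all genes to 0.03, 27 of 38 genes were below 0 and their median was -0.05. Under that scaling 41.3% of all genes were below 0.

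The fit also gives the size of change that the libraries leave room for. The 95% interval of the fold change lay within 1.5-fold either way for 29 of 38 genes, against 65.6% of all genes. The 38 genes also had higher values, with a median WT mean of 2202 normalized reads against 686 over all genes tested. The part of expression level in this share was not tested. The 9 genes whose interval reached beyond 1.5-fold were Cebpb, Nupr1, Trib3, Chac1, Ddit4, Vldlr, Pycr1, Cth and Cbs.

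**Figure D1:**
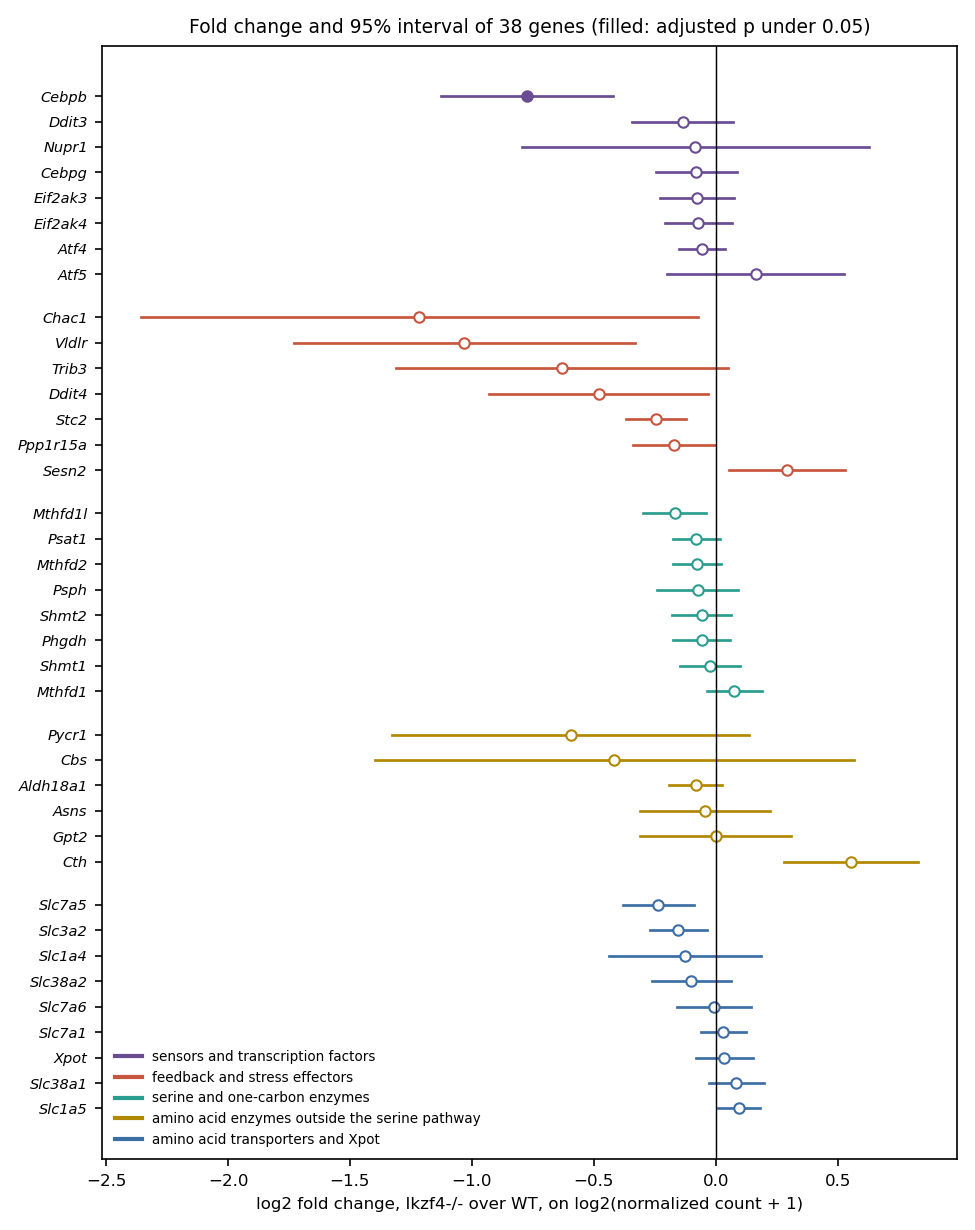
Log2 fold change (Ikzf4-/- over WT, x axis, on the log2(normalized count + 1) scale) of each of the 38 genes, with its 95% interval from limma, in blocks by role. Only Cebpb is filled (adjusted p under 0.05), and the serine and one-carbon block lies between -0.17 and 0.07.

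Among the sensors and transcription factors, Atf4 RNA was abundant and its fitted difference was small. Atf4 (ENSMUSG00000042406, GRCm38 chromosome 15, 80255184 to 80257541, plus strand) was at 10320, 9988 and 10492 normalized reads in WT and 10121, 9912 and 9595 in Ikzf4-/- libraries. The genotypes overlapped, and the lowest value was that of Ikzf4-/- replicate 3. The means were 10267 ± 256 and 9876 ± 265 (SD, n = 3 each). The log2 change was -0.06 (SE 0.04, 95% interval -0.15 to 0.04, limma adjusted p = 0.543). The mRNAs of its upstream kinases had log2 changes of -0.08 for Eif2ak3 (PERK; limma adjusted p = 0.600) and -0.07 for Eif2ak4 (GCN2; 0.595). Their intervals ran from -0.23 to 0.07 and from -0.21 to 0.07.

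Cebpb encodes C/EBP beta, a bZIP factor that can dimerize with ATF4 and is itself an ATF4 target. Cebpb (ENSMUSG00000056501, chromosome 2, 167688915 to 167690418, plus strand) was at 225, 188 and 185 in WT and at 98.9, 125 and 126 in Ikzf4-/- libraries. Every Ikzf4-/- value lay below every WT value, and the lowest was that of Ikzf4-/- replicate 1. The mean fell from 199 ± 22.0 to 116 ± 15.1 (SD, n = 3 each), a log2 change of -0.77 (SE 0.16, limma adjusted p = 0.0436). The call was not firm. Of the 6 fits that left out 1 library it was kept only without WT replicate 3 (0.0423), and the adjusted p without Ikzf4-/- replicate 3 was 0.109. Without WT replicate 1 it was 0.0835, without WT replicate 2 0.0891, without Ikzf4-/- replicate 1 0.108 and without Ikzf4-/- replicate 2 0.0858. Over all genes, 263 were called in the main fit. Leaving out 1 library gave 269 without WT replicate 1, 75 without WT replicate 2 and 523 without WT replicate 3. It gave 48 without Ikzf4-/- replicate 1, 112 without Ikzf4-/- replicate 2 and 20 without Ikzf4-/- replicate 3. The other leave-one-out results given here came from the same fits. The Cebpb call was also lost after correction for GC content and length (0.0830). The log2 change itself was -0.62 after that correction, and leaving out single libraries kept it between -0.83 and -0.66. Use of strand in counting is not given in the sources used here, and 312 bp of one exon of Tmem189 overlaps Cebpb on the opposite strand. Tmem189 had a log2 change of -0.16 (limma adjusted p = 0.142), and its part in the Cebpb value was not tested.

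The other C/EBP partner, Cebpg, had a log2 change of -0.08 (limma adjusted p = 0.627). Whether it differs from Cebpb in its change was not tested. Ddit3, the gene of the pro-death factor CHOP, was at 530, 493 and 450 in WT and 448, 429 and 462 in Ikzf4-/- libraries, with a log2 change of -0.14 (limma adjusted p = 0.493). Atf5, a paralogue of Atf4 also controlled at translation, was at 409, 533 and 659 and at 684, 500 and 589, a log2 change of 0.16 (0.658). Its spread within WT was wider than the difference between genotypes. Nupr1, a small stress-induced chromatin protein gene, was near the low end of the table at 27.9 to 49.0 in WT and 24.1 to 44.4 in Ikzf4-/- libraries. Ddit3 and Shmt2 lie on chromosome 10 at 1.33 and 1.11 Mb from Ikzf4, the locus that differs between the strains by design, and neither was called.

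Feedback and stress effector genes, which act downstream of ATF4, showed the widest spread of fold changes, from -1.22 to 0.29. Their median was -0.48 over 7 genes, and 0 were called, against 1.77% of all genes. Stc2 encodes stanniocalcin 2, a secreted glycoprotein induced by stress. Stc2 (ENSMUSG00000020303, chromosome 11, 31357307 to 31370074, minus strand) was at 23333, 20656 and 23060 in WT and 17991, 19603 and 18894 in Ikzf4-/- libraries, with no overlap. The means were 22350 ± 1473 and 18829 ± 808 (SD, n = 3 each). Its log2 change of -0.25 (SE 0.06, 95% interval -0.37 to -0.12) had a limma adjusted p of 0.0546, just above the threshold. The authors' deposited table gave it an adjusted p of 0.00246. Leave-one-out fits gave limma adjusted p-values from 0.0472, without WT replicate 2, to 0.161, without Ikzf4-/- replicate 3. Leaving out WT replicate 1, its highest value, gave a log2 change of -0.21 (limma adjusted p = 0.0891).

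Ppp1r15a encodes GADD34, the phosphatase subunit that returns eIF2 to its unphosphorylated state. It was at 857, 853 and 768 in WT and 741, 755 and 702 in Ikzf4-/- libraries, without overlap, with a log2 change of -0.17 (limma adjusted p = 0.271). Sesn2, which encodes the leucine sensor Sestrin2, an inhibitor of mTORC1, was at 945, 1228 and 1271 in WT and 1360, 1304 and 1524 in Ikzf4-/- libraries. Its values did not overlap either, and lay higher in the Ikzf4-/- libraries (log2 change 0.29, limma adjusted p = 0.185). WT replicate 1 was the lowest, and without it the log2 change was 0.16 (limma adjusted p = 0.405).

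**Figure D2:**
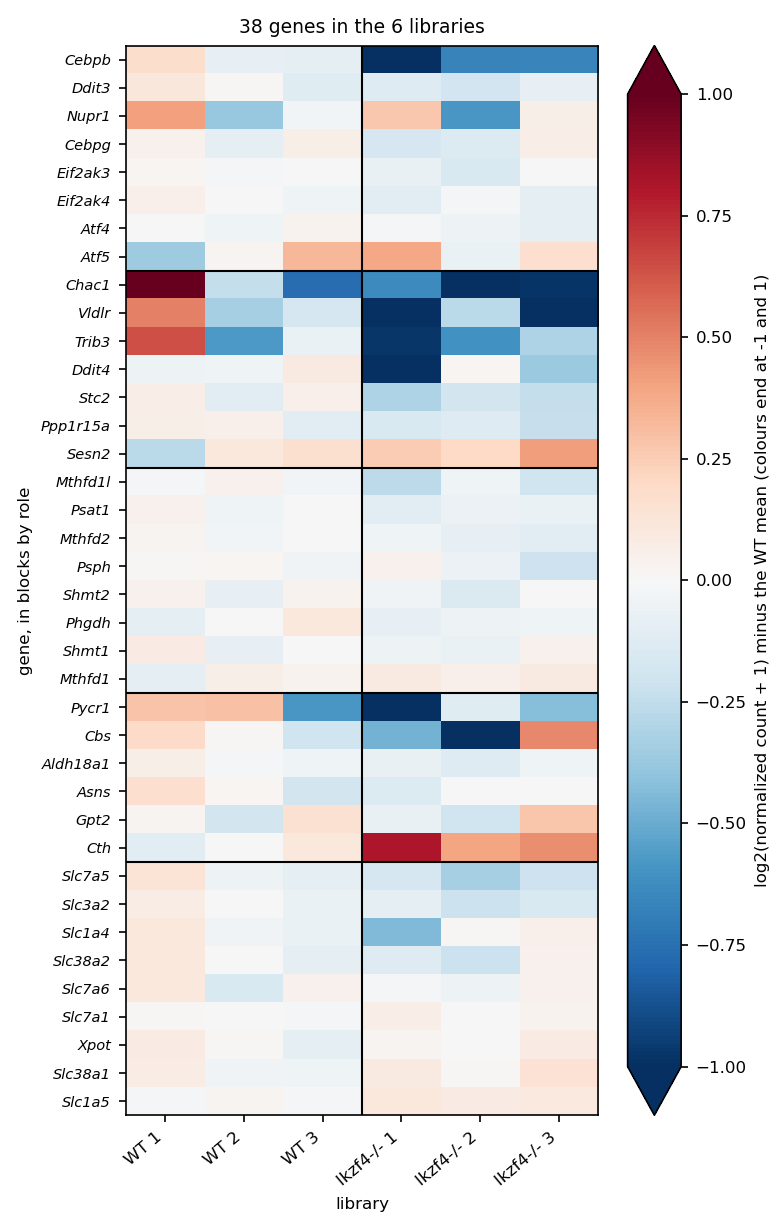
Each gene (rows, in blocks by role) in each of the 6 libraries (columns), as log2(normalized count + 1) minus the mean of the 3 WT libraries. Cebpb is blue and Cth red in all 3 Ikzf4-/- libraries, and Chac1, Trib3 and Vldlr are red in WT replicate 1.

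The remaining effectors had larger fold changes with wide spread between libraries; they were chosen for description after their values were seen. Chac1, which encodes an enzyme that degrades glutathione, was at 58.5, 24.3 and 16.5 in WT and 18.2, 6.28 and 14.1 in Ikzf4-/- libraries. These values stand for an estimated 55, 27, 17, 18, 6 and 14 reads. WT replicate 1 was the highest and the genotypes overlapped. The log2 change was -1.22 (SE 0.52, limma adjusted p = 0.247), and without WT replicate 1 it was -0.71 (0.592). Trib3, a pseudokinase gene that feeds back on ATF4 and CHOP, was at 135, 57.5 and 82.5 in WT and 43.4, 56.5 and 69.3 in Ikzf4-/- libraries. WT replicate 1 was again the highest (log2 change -0.63, limma adjusted p = 0.314, and -0.31 without that library).

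Vldlr, the very low density lipoprotein receptor gene, and Ddit4, the gene of the mTORC1 inhibitor REDD1, shared an order among the Ikzf4-/- libraries. Both are also known as targets of hypoxia signalling. Vldlr was at 611, 342 and 383 in WT and 130, 358 and 199.9 in Ikzf4-/- libraries. Ddit4 was at 7134, 7198 and 7897 in WT and 3484, 7484 and 5727 in Ikzf4-/- libraries. In both genes Ikzf4-/- replicate 1 was the lowest and replicate 2 lay within or next to the WT range. Log2 fold changes were -1.03 for Vldlr (limma adjusted p = 0.121) and -0.48 for Ddit4 (0.245). Without Ikzf4-/- replicate 2, Vldlr had -1.41 and was called (0.0450), and Ddit4 had -0.73 (0.0863). Without Ikzf4-/- replicate 1 these were -0.69 and -0.18. Without WT replicate 1, the highest for Vldlr, its log2 change was -0.78 (limma adjusted p = 0.247).

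The serine and one-carbon enzymes were abundant and the most even block. Of 8 genes, 0 were called, against 1.77% of all genes, and 7 had a fitted log2 change below 0, against 48.7%. The 8 values ran from -0.17 to 0.07 with a median of -0.07. Phgdh, the first and committed enzyme of serine synthesis, was at 7833, 8349 and 8998 in WT and 7906, 8109 and 8120 in Ikzf4-/- libraries (log2 change -0.06, 95% interval -0.18 to 0.06, limma adjusted p = 0.614). The values of the genotypes overlapped. Psat1, the transaminase of the next step, was at 9557, 8991 and 9300 in WT and 8584, 8915 and 8847 in Ikzf4-/- libraries. Its values did not overlap, but the difference was small (log2 change -0.08, limma adjusted p = 0.365). Psph, the phosphatase that releases serine, had a log2 change of -0.08 (0.657), although 452 bp of an exon overlaps Cct6a on the opposite strand.

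Serine hydroxymethyltransferases move the serine carbon onto folate, Shmt1 in the cytosol and Shmt2 in mitochondria. Their log2 changes were -0.02 (limma adjusted p = 0.867) and -0.06 (0.621). Of the folate enzymes, the mitochondrial Mthfd1l stood lowest. It was at 8115, 8435 and 8026 in WT and 6820, 7957 and 7117 in Ikzf4-/- libraries, without overlap (log2 change -0.17, 95% interval -0.30 to -0.04, limma adjusted p = 0.157). The mitochondrial Mthfd2 also had no overlap, at 4828, 4651 and 4765 against 4610, 4485 and 4409 (-0.08, 0.398). The cytosolic Mthfd1 had a log2 change of 0.07 (0.483).

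Among the amino acid enzymes outside the serine pathway, Cth stood higher in Ikzf4-/- cells. Cth encodes cystathionine gamma-lyase, the last step of transsulfuration, which makes cysteine from cystathionine. Cth (ENSMUSG00000028179, chromosome 3, 157894248 to 157925077, minus strand) was at 291, 314 and 336 in WT and 549, 410 and 431 in Ikzf4-/- libraries. All 3 Ikzf4-/- values lay above all WT values, with replicate 1 the highest. The means were 313 ± 22.6 and 463 ± 74.7 (SD, n = 3 each), a log2 change of 0.55 (SE 0.12, 95% interval 0.28 to 0.83). Its limma adjusted p was 0.0537, above the threshold, against 0.00311 in the authors' deposited table. It was called with equal library totals (0.0492), with array weights (0.0386) and without WT replicate 3 (0.0460), and across the fits without 1 library the adjusted p reached 0.135.

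Cbs, the enzyme just before Cth in that pathway, was barely expressed, at 24.5, 21.6 and 18.4 in WT and 15.1, 8.38 and 30.1 in Ikzf4-/- libraries, so a wide range of differences was left possible (95% interval -1.40 to 0.57, limma adjusted p = 0.682). Asns, asparagine synthetase and the classic amino acid response gene, was at 336, 304 and 264 in WT and 272, 302 and 299 in Ikzf4-/- libraries. The ranges overlapped (log2 change -0.04, 95% interval -0.31 to 0.22, limma adjusted p = 0.891). Of the proline enzymes, Aldh18a1, which makes the proline precursor, was at 4388, 4152 and 4094 in WT and 3988, 3855 and 4086 in Ikzf4-/- libraries, without overlap (-0.08, 0.414). Pycr1, which completes proline synthesis in mitochondria, was low and spread, at 94.7, 95.2 and 51.4 against 32.3, 71.2 and 57.3 (-0.60, 0.378). Gpt2, the mitochondrial alanine transaminase gene, was at 361 ± 42.0 and 363 ± 64.3 (SD, n = 3 each), with a 95% interval from -0.31 to 0.31.

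Transporters, counted with Xpot, the tRNA exportin gene, gave 0 called of 9 genes, against 1.77% of all genes. Their median log2 change was -0.01. Slc7a5 and Slc3a2 encode the light and heavy chains of one heterodimer, the large neutral amino acid transporter LAT1-CD98. Slc7a5 (ENSMUSG00000040010, chromosome 8, 121881150 to 121907694, minus strand) was at 8200, 7218 and 7007 in WT and 6628, 5913 and 6475 in Ikzf4-/- libraries. The genotypes did not overlap, and WT replicate 1 was the highest. The means were 7475 ± 637 and 6338 ± 376 (SD, n = 3 each), a log2 change of -0.24 (SE 0.07, 95% interval -0.38 to -0.09). The limma adjusted p was 0.0927, against 0.0184 in the authors' deposited table. The fit without WT replicate 1 gave -0.17 (limma adjusted p = 0.185), and the GC content and length correction -0.15 (0.260). Slc3a2 was at 5497, 5216 and 4992 in WT and 4908, 4496 and 4703 in Ikzf4-/- libraries, again without overlap (log2 change -0.15, limma adjusted p = 0.157). Leaving out WT replicate 1, its highest value, gave -0.12 (0.361).

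Slc1a5, the glutamine transporter ASCT2, lay the other way. It was at 19257, 19980 and 19435 in WT and 21025, 20726 and 20909 in Ikzf4-/- libraries, without overlap and with little spread. Its log2 change was 0.10 (95% interval 0.01 to 0.18, limma adjusted p = 0.238). Its close relative Slc1a4 had -0.13 (0.695). The glutamine and neutral amino acid carriers Slc38a1 and Slc38a2 had 0.08 (0.425) and -0.10 (0.512). Slc7a1, the main arginine importer, was level at 7745, 7689 and 7557 against 8005, 7627 and 7863 (0.03, 95% interval -0.06 to 0.12). Slc7a6, which exchanges arginine for neutral amino acids, had -0.01 (0.972) and Xpot 0.03 (0.789).

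**Figure D3:**
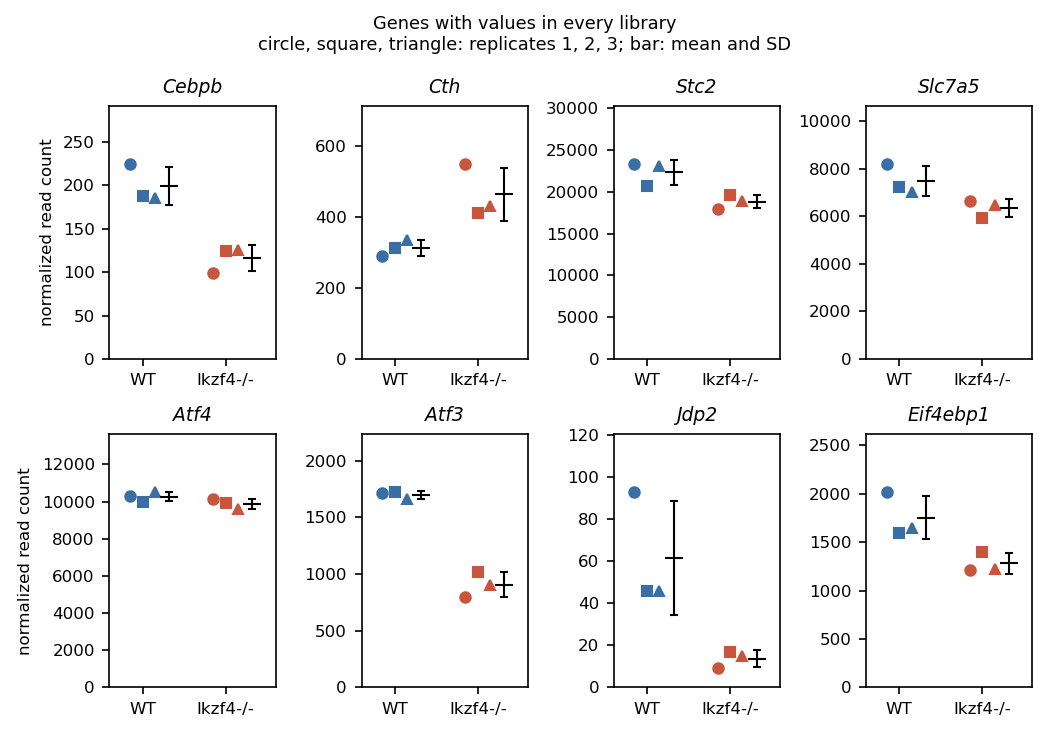
Normalized read count (y axis, from 0) per library for the 5 members described in full and for 3 related genes that were called, with the mean and SD of 3 libraries. Atf4 overlaps between genotypes, Cebpb, Stc2 and Slc7a5 lie lower and Cth higher in Ikzf4-/- cells, and Atf3 falls from about 1697 to 905.

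Levels were compared between genes only as normalized reads per kilobase of exon. In WT the highest were Slc1a5 at 4687 ± 90.3, Atf4 at 4354 ± 109, Stc2 at 4319 ± 285 and Ddit4 at 4222 ± 241 per kilobase (SD, n = 3 each). Atf4 to Ddit4 did not differ beyond their spread. Phgdh followed at 3376 ± 235, and Shmt2, Psat1 and Slc7a5 at 2276, 2182 and 2016. At the other end were Chac1 at 20.2, Nupr1 at 14.9 and Cbs at 2.87 per kilobase. The transsulfuration enzyme Cth, at 112, thus stood far above Cbs. Asns, at 110, was far below Phgdh and Psat1 on the same scale, and Psph stood between them at 241.

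**Figure D4:**
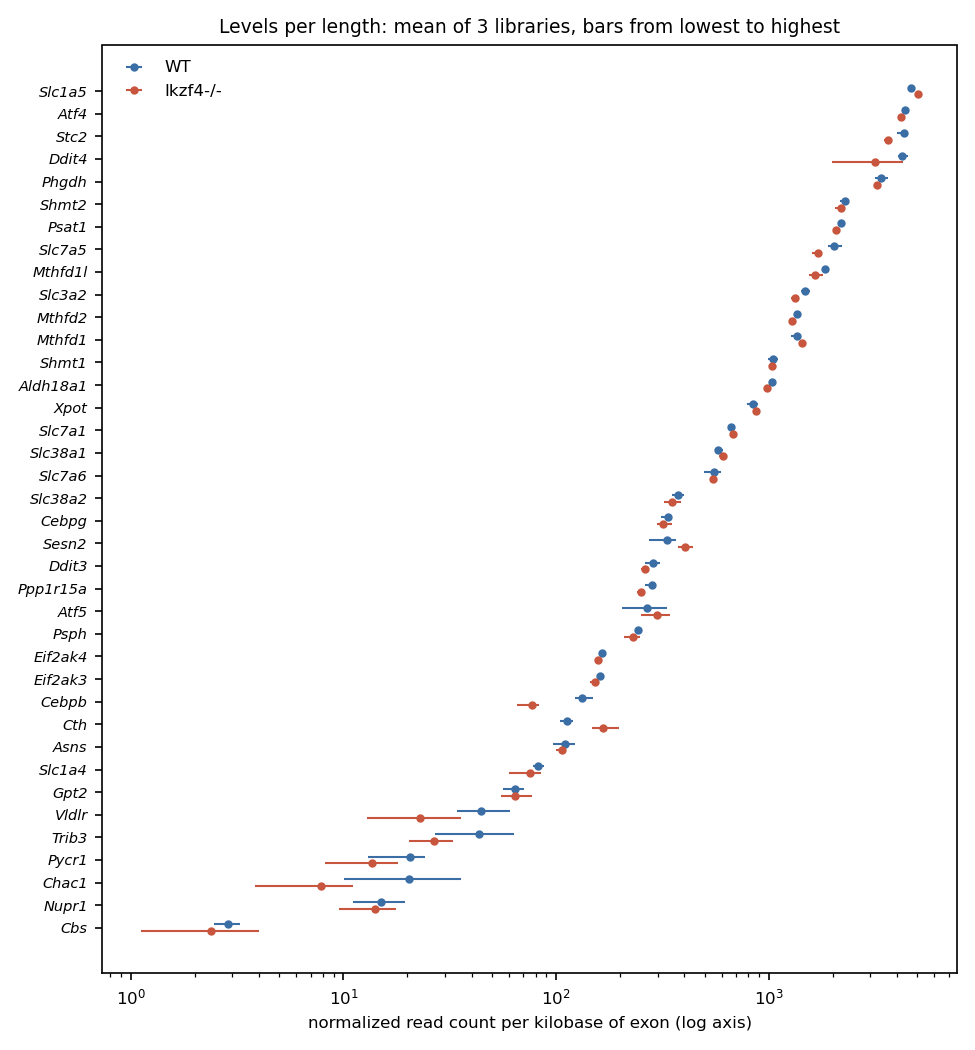
Normalized read count per kilobase of exon (log x axis) for the 38 genes, ordered by WT mean; points are means of 3 libraries and bars run from the lowest to the highest. Slc1a5 is at the top at 4687 in WT and Cbs at the bottom at 2.87.

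The libraries did not contribute evenly to the pattern. WT replicate 1 held the highest value for 21 of the 38 genes, against 25.6% of all genes tested. Ikzf4-/- replicates 1 and 2 each held the lowest value for 11, against 16.6% and 14.0% of all genes. As a median over the 38 genes, log2(value + 1) lay 0.09 above its 6-library mean in WT replicate 1, 0.02 and 0.01 in WT replicates 2 and 3, and at -0.04, -0.04 and 0.01 in Ikzf4-/- replicates 1 to 3. Without WT replicate 1, 26 of 38 genes had a log2 change below 0, with a median of -0.06, and 0 were called. In that fit 49.1% of all genes were below 0, with a median of 0.003, and 1.82% were called.

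All 7 genes with the response element core and a row had, on all libraries and under each scaling tried, a fitted log2 change below 0. Their median was -0.60, and none was called, against 1.77% of all genes. The 27 members with a window but no core had a median of -0.08. Over all tested genes with a window, 144 of the 278 with the core were below 0, with a median of -0.01. Of the 7, Chac1, Vldlr, Trib3 and Pycr1 had -0.60 or lower, and Slc1a4, Nupr1 and Asns had -0.13, -0.09 and -0.04. The 4 with larger values were also among the lower expressed members, at 20.2 to 44.3 normalized reads per kilobase in WT, although Nupr1 was lower still. Without WT replicate 1 the count below 0 was 5 of 7 and the median -0.31, and without Ikzf4-/- replicate 1 it was 5 of 7 and -0.27. Without Ikzf4-/- replicate 2 it was 6 of 7 and -0.64. With array weights the median of the 7 was -0.38, and with at least 10 normalized reads required in every library, which left 6 of them, it was -0.36. The part of low expression and of single libraries in this result was not tested.

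**Figure D5:**
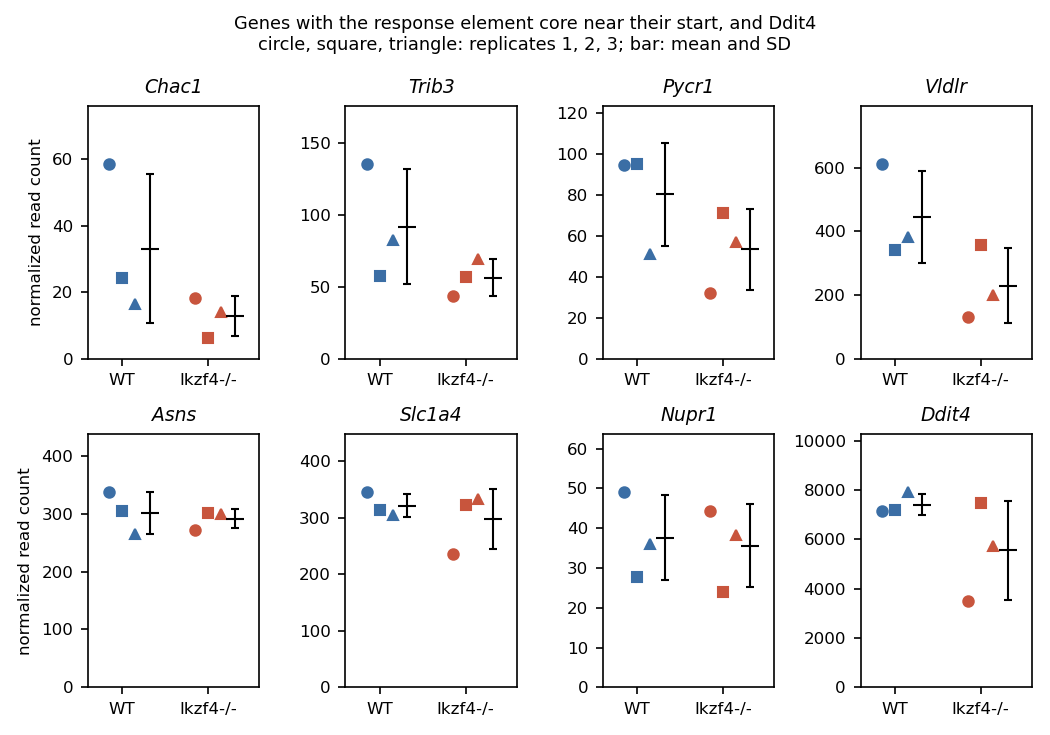
Normalized read count (y axis, from 0) per library for the 7 members with the response element core near their start and for Ddit4, with the mean and SD of 3 libraries. WT replicate 1 (circle) is the highest value for Chac1, Trib3, Vldlr, Asns, Slc1a4 and Nupr1.

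Other genes of the pathway were taken from related lists, chosen with earlier results of these data known. Their counts below are therefore description only and no independent evidence about the pathway. Of 20 further integrated stress response genes, 3 were called, all lower in Ikzf4-/- cells: Atf3, Jdp2 and Eif4ebp1. In the same direction 1.20% of all genes were called. Atf3, a bZIP factor induced by ATF4 and by many other stimuli, was at 1713, 1720 and 1660 in WT and 795, 1014 and 904 in Ikzf4-/- libraries. The genotypes were far apart, with little spread in WT. The mean fell from 1697 ± 33.0 to 905 ± 110 (SD, n = 3 each), a log2 change of -0.91 (limma adjusted p = 0.00102), and Atf3 was called in each of the 6 fits without 1 library.

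Jdp2, which encodes a bZIP repressor related to ATF3, was at 92.6, 45.8 and 45.6 in WT and 9.08, 16.8 and 15.1 in Ikzf4-/- libraries. Its values did not overlap (log2 change -2.05, limma adjusted p = 0.0291), and WT values stood highest in replicate 1. Eif4ebp1, the gene of the translation inhibitor 4E-BP1, fell from 1755 ± 226 to 1281 ± 106 (SD, n = 3 each), a log2 change of -0.45 (limma adjusted p = 0.0436), with each Ikzf4-/- value below each WT value. Without WT replicate 1 or WT replicate 3 both kept the call. Jdp2 and Eif4ebp1 lost it without WT replicate 2 (limma adjusted p = 0.0615 for each), Ikzf4-/- replicate 1 (0.0772 and 0.119), Ikzf4-/- replicate 2 (0.0505 and 0.0578) and Ikzf4-/- replicate 3 (0.0933 and 0.155). The median of these 20 genes was -0.03, against 0.005 over all genes. Of the 20, 13 had a fitted log2 change below 0, against 48.7% of all genes. All Ikzf4-/- values lay below all WT values for 6 (background 12.2%) and above them for 1 (background 11.0%). The authors' deposited table added Bbc3 and Tnfrsf10b as higher, with log2 changes of 0.47 and 0.42, where it called 2.45% of all genes higher.

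The cytosolic tRNA synthetases charge tRNA with amino acids and are common ATF4 targets. Of 20, 17 had a fitted log2 change below 0, against 48.7% of all genes, but all were small, with a median of -0.03. Farsb alone was called, higher in Ikzf4-/- cells (0.25, limma adjusted p = 0.0474), 1 of 20 against 0.572% of all genes called higher. That call held only without WT replicate 3 (0.0240) among the leave-one-out fits. It was lost without WT replicate 1 (0.0662) or 2 (0.0952), without Ikzf4-/- replicate 1 (0.127), 2 (0.124) or 3 (0.141), and after the GC content and length correction (0.0847). Of 17 mitochondrial synthetases, 14 were above 0, against 7621 of all 14864 genes. Their median was 0.05, and 0 were called, against 1.77% of all genes. Among 28 other folate, methionine and purine genes, only Ggh, which trims folate polyglutamates, was called (-0.50, 0.0291), 1 of 28 against 1.20% of all genes called lower. Ggh lost the call without WT replicate 2 (limma adjusted p = 0.0615), Ikzf4-/- replicate 1 (0.0839) or Ikzf4-/- replicate 3 (0.109). Of 17 other amino acid transporters and 21 other amino acid enzymes, 0 were called, against 1.77% of all genes. Nor was any of 20 genes of amino acid sensing and mTORC1. The authors' deposited table called Bcat1 and Sesn3 higher and Ass1 and Gatsl3 lower in these lists, 4 of the 55 to which it gave an adjusted p, close to its 6.34% of all genes.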

How the data were processed

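Total RNA of 3 WT and 3 Ikzf4-/- Th2 cultures was sequenced by a service company, per the labels' protocols. Trimmomatic 0.36, STAR 2.5.2b and DESeq2 are named in the submitters' processing notes with the builds GRCm38 and mm10. The counting tool, its use of strand and the annotation are not given in the sources used here. The authors deposited 1 table whose sample columns hold a never-negative signal, read here as read counts divided by 1 size factor per library, since the values are whole multiples of 1 step per library (within 0.1 step for 100% of values up to 1000 steps). The steps also gave the estimated depth, and no count test was run on these reads, because the steps of Ikzf4-/- replicates 1 and 3, 1.00878 and 1.00462, lie too near 1 for the rule applied here. The same table holds the authors' deposited log2 fold changes, p-values and adjusted p-values; 12849 genes have an adjusted p-value.

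After a filter that kept 14864 of 14868 genes, those averaging at least 10, values were fitted as log2(value + 1) with limma 3.58.1 in R 4.3.3, genotype as the only term, empirical Bayes with a mean-variance trend, and Benjamini-Hochberg adjustment over all genes tested. Tests were two-sided, called at an adjusted p under 0.05, and fold changes understate those of low genes. Intervals are limma's 95% intervals. Lengths (union of exons), positions and exon overlaps came from GENCODE M21 on GRCm38, in place of the planned RefSeq protein lengths, which were not used here. Promoter windows came from RefSeq (GRCm38.p6), cut to at most 30 bases after the start where printed. The fit was tested on simulated data.

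The members and lists were chosen with earlier results of these data known, so no set test was run. Values in every library were given for Atf4, for members called by limma or in the authors' deposited table, and for members without overlap and past a preset fold change; other members so described, and related genes that were called, were added. Same-numbered libraries were not taken as pairs: their deviations from the genotype means correlated across genes at 0.145, 0.0122 and 0.142.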

Additional observations from a re-analysis of the deposited data

How the results depend on the processing

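Against 1 member called, the count was 1 with quantile or upper quartile scaling, no filter, at least 10 in every library, and pseudocounts of 0.1 and 10. It was 2 with equal library totals and with array weights (Cebpb and Cth in both), 4 in the authors' deposited table, and 0 after the correction for GC content and length (5 spline degrees of freedom), which was chosen after seeing the data. With the replicate number as a block it was 4 (Cebpb, Cth, Slc7a5 and Stc2), where 754 of all genes were called; the numbers were not shown to pair the libraries. Leaving out 1 library gave 0 to 2 members. It was 2 without WT replicate 3, where 3.53% of all genes were called. It was 1 without WT replicate 2 (Stc2, 0.508%) or Ikzf4-/- replicate 2 (Vldlr, 0.757%), in neither case Cebpb. It was 0 without WT replicate 1 (1.82%), Ikzf4-/- replicate 1 (0.325%) or Ikzf4-/- replicate 3 (0.135%). Array weights called 3.24% of all genes, equal totals 1.81% and the GC and length fit 1.21%, against 1.77% in the main fit. The cause of these moves was not tested.

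Of 642 values of single members under alternatives, 6 lost significance, 11 gained it, 597 stayed as they were in sign and significance, and 28, from 11 genes, changed sign; none of these 28 was called under either setting. Gpt2, at -0.0004, changed to 0.013 with quantile scaling, 0.0042 with upper quartile scaling, 0.027 with equal library totals, 0.026 with array weights, 0.024 after the GC content and length correction and 0.0088 in the authors' deposited table. Shmt1 changed to 0.0034 with equal totals and 0.0037 with array weights, and Slc7a6 to 0.020 and 0.042. After the GC content and length correction Shmt2 was at 0.022 and Phgdh at 0.011. Across the fits without 1 library, log2 fold changes ran from -0.14 to 0.10 for Gpt2, -0.066 to 0.017 for Shmt1, -0.083 to 0.047 for Slc7a6, -0.14 to 0.038 for Asns, -0.28 to 0.16 for Nupr1, -0.015 to 0.33 for Atf5, -0.012 to 0.074 for Xpot, -0.22 to 0.031 for Slc1a4 and -0.86 to 0.0034 for Cbs. Cbs, Chac1, Nupr1, Pycr1 and Trib3 had few reads, which limits their precision.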
